A study of Mus musculus with 12 samples.

Results

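Guanylate-binding proteins and immunity-related GTPases are 2 families of interferon-inducible GTPases, and 10 of their genes were followed here out of 25556 genes in the joined count table. The members were chosen by symbol, Gbp2, Gbp3, Gbp5 and Gbp7 (the cluster on chromosome 3), Gbp4, Gbp6 and Gbp9 (chromosome 5), Irgm1 and Igtp (chromosome 11) and Iigp1 (chromosome 18). Each was found as a single row by its gene name. All 10 passed the expression filter that left 17208 genes to test.

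Expression was measured by RNA sequencing of brain tissue from male C57BL6 mice in 4 groups of 3 libraries. THC_LPS animals were injected intraperitoneally with tetrahydrocannabinol (THC), the cannabis constituent that activates cannabinoid receptors, at 5 mg/kg each day on postnatal days 30 to 44. At day 70 the injection was lipopolysaccharide (LPS), the endotoxin of Gram-negative bacteria, at 0.33 mg/kg by the same route. Veh_LPS animals had the vehicle, 8% Tween-80 in saline, in adolescence and the same LPS dose as adults. THC_Ctrl animals had THC and then saline, Veh_Ctrl animals had vehicle and then saline, and tissue was collected 24 h after the adult injection in all groups. The labels name no transgene and no genotype other than C57BL6. Whether each library is a separate mouse is not stated in the labels. The p-values therefore reflect spread among these samples only, and part of it may be technical.

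Interferons bind their receptors and activate STAT and IRF transcription factors, which switch on the genes of both families from low basal levels. Guanylate-binding proteins assemble on pathogen vacuoles and on bacterial membranes and help expose LPS to the inflammasome caspase that senses it inside the cell. Immunity-related GTPases fall into effectors, such as Iigp1, that disrupt pathogen vacuoles, and regulators, such as Irgm1 and Igtp, that sit on host membranes and keep the effectors from attacking them. In brain, microglia, astrocytes and endothelial cells are known to make them during inflammation. The study asked how THC in adolescence and LPS in adulthood, alone and together, change the brain transcriptome.

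The bases before the RefSeq start are shown for 6 members. An interferon-stimulated response element (ISRE, where IRF factors bind) or a gamma-activated site (GAS) is the sequence through which interferon is known to act on these genes. The windows are the 250 bases upstream of that start (build GRCm38.p6). Each is cut where it meets an exon of a protein-coding GENCODE M21 transcript of the gene. The windows of Gbp5 and Irgm1 lie inside the GENCODE M21 span of their gene, which begins further upstream, at chr3:142493978 and chr11:48871683. For Gbp2, whose match lies inside an annotated first exon, 30 bases around it are shown. Capitals mark matches to the ISRE (GAAA, any 2 bases, GAAA) and the GAS (TTCNNNGAA), searched on both strands, and each sequence reads 5′ to 3′ on the strand of its gene. They lie at chr3:142620594-142620623 (plus strand), chr3:142559794-142560025 (plus), chr3:142496684-142496899 (plus), chr3:142530086-142530335 (plus), chr11:48871421-48871670 (minus) and chr11:58199306-58199555 (plus).
Gbp2: actcttttagTTTCACTTTCactgtcttaa
Gbp3: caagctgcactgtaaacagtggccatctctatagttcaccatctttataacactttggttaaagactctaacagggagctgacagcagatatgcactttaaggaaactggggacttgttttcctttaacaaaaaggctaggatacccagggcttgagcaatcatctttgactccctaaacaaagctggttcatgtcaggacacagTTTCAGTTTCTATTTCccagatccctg
Gbp5: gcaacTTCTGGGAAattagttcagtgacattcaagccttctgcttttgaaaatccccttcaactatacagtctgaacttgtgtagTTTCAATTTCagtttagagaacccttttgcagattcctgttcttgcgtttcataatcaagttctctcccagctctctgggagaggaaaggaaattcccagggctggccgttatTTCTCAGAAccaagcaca
Gbp7: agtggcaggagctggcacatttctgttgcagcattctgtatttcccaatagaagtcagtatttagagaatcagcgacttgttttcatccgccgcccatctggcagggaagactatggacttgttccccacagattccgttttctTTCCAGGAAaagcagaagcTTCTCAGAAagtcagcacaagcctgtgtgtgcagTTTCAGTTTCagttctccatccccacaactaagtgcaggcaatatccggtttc
Irgm1: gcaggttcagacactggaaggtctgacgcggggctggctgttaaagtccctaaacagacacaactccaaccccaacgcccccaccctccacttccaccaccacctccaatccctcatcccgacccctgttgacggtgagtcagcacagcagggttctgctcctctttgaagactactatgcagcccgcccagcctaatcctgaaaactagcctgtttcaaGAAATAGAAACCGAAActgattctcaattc
Igtp: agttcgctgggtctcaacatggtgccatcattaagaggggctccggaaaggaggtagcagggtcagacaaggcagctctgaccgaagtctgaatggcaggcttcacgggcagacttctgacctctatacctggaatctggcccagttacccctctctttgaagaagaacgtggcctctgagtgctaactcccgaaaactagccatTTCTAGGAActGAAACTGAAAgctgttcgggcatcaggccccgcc

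An ISRE match was found in the windows of 6 of the 6 members that had one, and in 2.98% of all 32851 RefSeq windows of this length. A GAS match was found for Gbp5, Gbp7 and Igtp, 3 of 6, and in 7.02% of all windows. Both motifs stood together in those 3 windows and in 0.332% of all windows. In Gbp3 and in Irgm1 the capitals are 2 overlapping ISRE matches, at bases -45 to -36 and -39 to -30 before the Gbp3 start and at -30 to -21 and -24 to -15 before the Irgm1 start. Gbp3 has a second RefSeq start further downstream, and the window before it held neither motif. Gbp4, Gbp6, Gbp9 and Iigp1 were not in the promoter table. A match describes the letters and does not show binding.

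**Figure D1:**
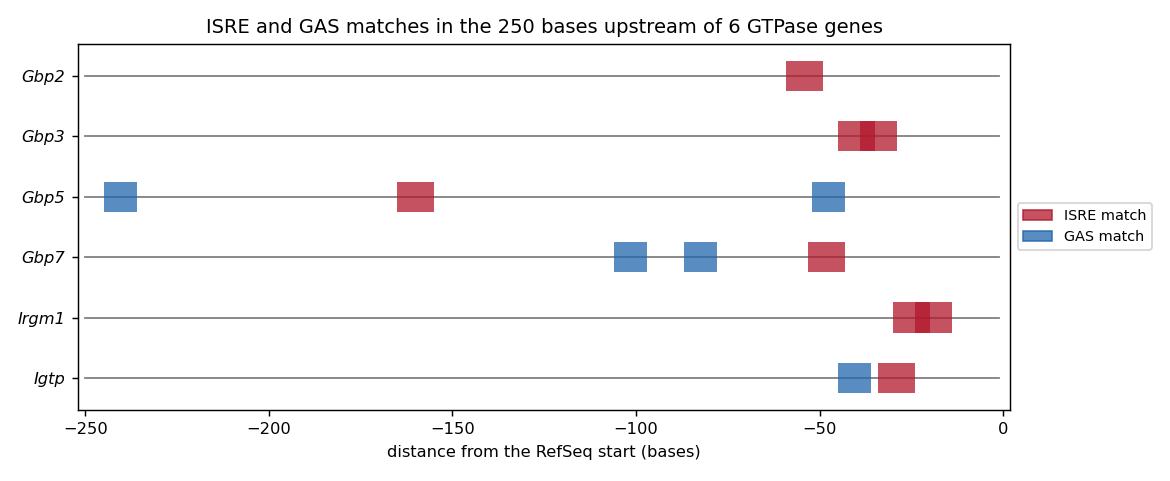
Positions of ISRE and GAS matches in the 250 bases before the RefSeq start of 6 members, 1 line a gene, with distance from the start in bases on the horizontal axis. Red boxes are ISRE matches and blue boxes GAS matches, darker where 2 matches overlap. Every line carries an ISRE match, and those of Gbp5, Gbp7 and Igtp also carry GAS matches.

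How far a read can be told to come from 1 member differs along the family, and coordinates are those of the files (mm10). The row named Gbp5 (ENSMUSG00000040264) spans chr3:142496934-142619179, starts at the RefSeq Gbp5 start and contains the rows of Gbp7 and Gbp3. In GENCODE M21 its identifier belongs to Gbp2b and its span covers parts or all of Gbp5, Gbp7, Gbp3 and Gbp2b, so its reads may come from Gbp5, from Gbp2b or from both. The row named Gbp6 (ENSMUSG00000079362, chr5:105215699-105293699) has the identifier of Gm43302 in GENCODE M21 and spans Gbp10 and Gbp6. Gbp4 and Gbp9 overlap each other and Gbp8 on the same strand, and Igtp overlaps Irgm2. Sharing of sequence was counted over the 50-base words of the longest GENCODE M21 transcript of each gene. Irgm1 shared 0% with any other gene, Gbp2 2.07%, the M21 gene Gbp5 2.45%, Gbp3 4.79%, Iigp1 3.19%, Gbp9 8.31%, Igtp 12.3%, Gbp4 12.8%, Gbp7 12.9% and Gbp6 59.7%. The M21 gene Gbp6 shared 51.45% of its words with Gm43302, whose identifier the deposited Gbp6 row itself carries. Gbp7 shared 10.57% with Gm43802. The values of Irgm1 and Gbp2 therefore depend least on how shared reads were assigned and those of the Gbp5 and Gbp6 rows are uncertain as single genes, and family sums are given as well.

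**Figure D2:**
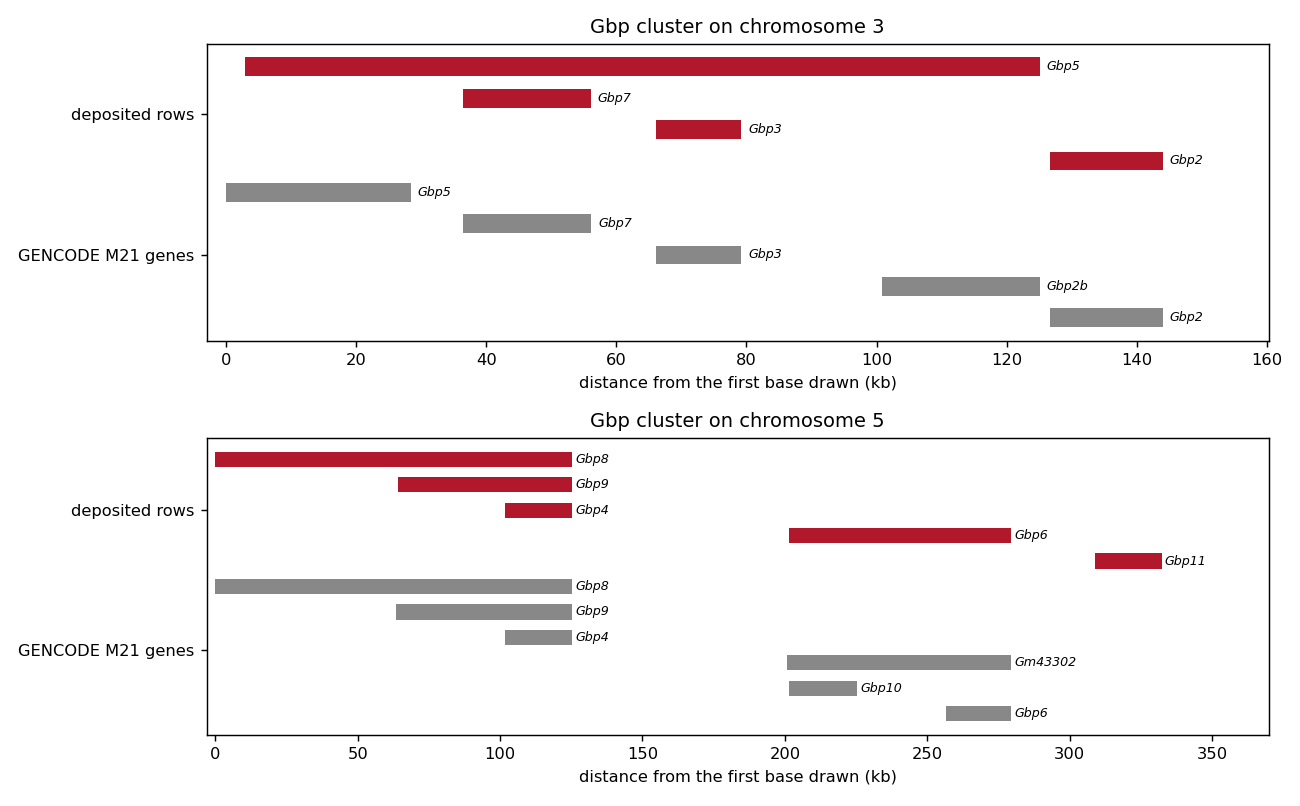
Spans of the deposited Gbp rows (red) and of GENCODE M21 genes (grey) in the clusters on chromosomes 3 and 5, with distance in kb from the first base drawn on the horizontal axis. The deposited Gbp5 row runs across the M21 genes Gbp7, Gbp3 and Gbp2b, and the deposited Gbp6 row runs across Gbp10 and Gbp6.

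Library totals ran from 16.7 to 22.4 M reads in THC_LPS, 25.5 to 44.7 M in Veh_LPS, 24.7 to 25.6 M in THC_Ctrl and 24.3 to 26.4 M in Veh_Ctrl. Member counts lay between 21 and 785 reads a library. Veh_LPS replicate 2 held pituitary transcripts (7 markers, 4165 CPM in sum, against at most 15.5 CPM elsewhere). The 5 markers of caudal nervous tissue summed to 0.0489 to 8.07 CPM in THC_LPS, 11.5 to 14.6 CPM in Veh_LPS, 0.769 to 8.46 CPM in THC_Ctrl and 0 to 0.54 CPM in Veh_Ctrl. THC_LPS replicate 3 stood apart in base composition. The Spearman correlation of its relative gene levels with GC content was -0.744, where the remaining 11 libraries had -0.109 to 0.274, and members have a median GC content of 43.3% against 49.8% for all tested genes. The 5 neuron markers, which define the labelled tissue, summed to 3767 CPM or more in every library. Each of these differences moves with a group or a library, and their part in the results below was not tested beyond the values given.

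Levels are given below as CPM (counts per M reads, library sizes scaled by TMM) in replicates 1, 2 and 3 of each group, and "called" means an adjusted p under 0.05 (edgeR quasi-likelihood test, Benjamini-Hochberg over all 17208 genes). After vehicle, LPS raised 6 of the 10 GTPase genes, Gbp2, Gbp3, Gbp7, Gbp6, Irgm1 and Igtp, where 0.622% of all tested genes were called higher. The Veh_LPS and Veh_Ctrl libraries did not overlap for 9 members, all higher with LPS, where 6.96% of all genes were separated in that direction. The median log2 fold change of the members was 1.39, and that of all tested genes was -0.036. After THC, LPS raised 1 of the 10, Gbp7, where 0.0988% of all genes were called higher, and 7 members did not overlap, all higher in THC_LPS, where 9.83% of all genes did so. The median log2 fold change of the members was 0.94 in that comparison, and that of all genes was -0.008. All 10 log2 fold changes were above 0 in both comparisons, where 7537 (after vehicle) and 8463 (after THC) of all 17208 genes were. Since RNA came from bulk tissue, more cells of a type and more RNA per cell cannot be told apart.

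**Figure D3:**
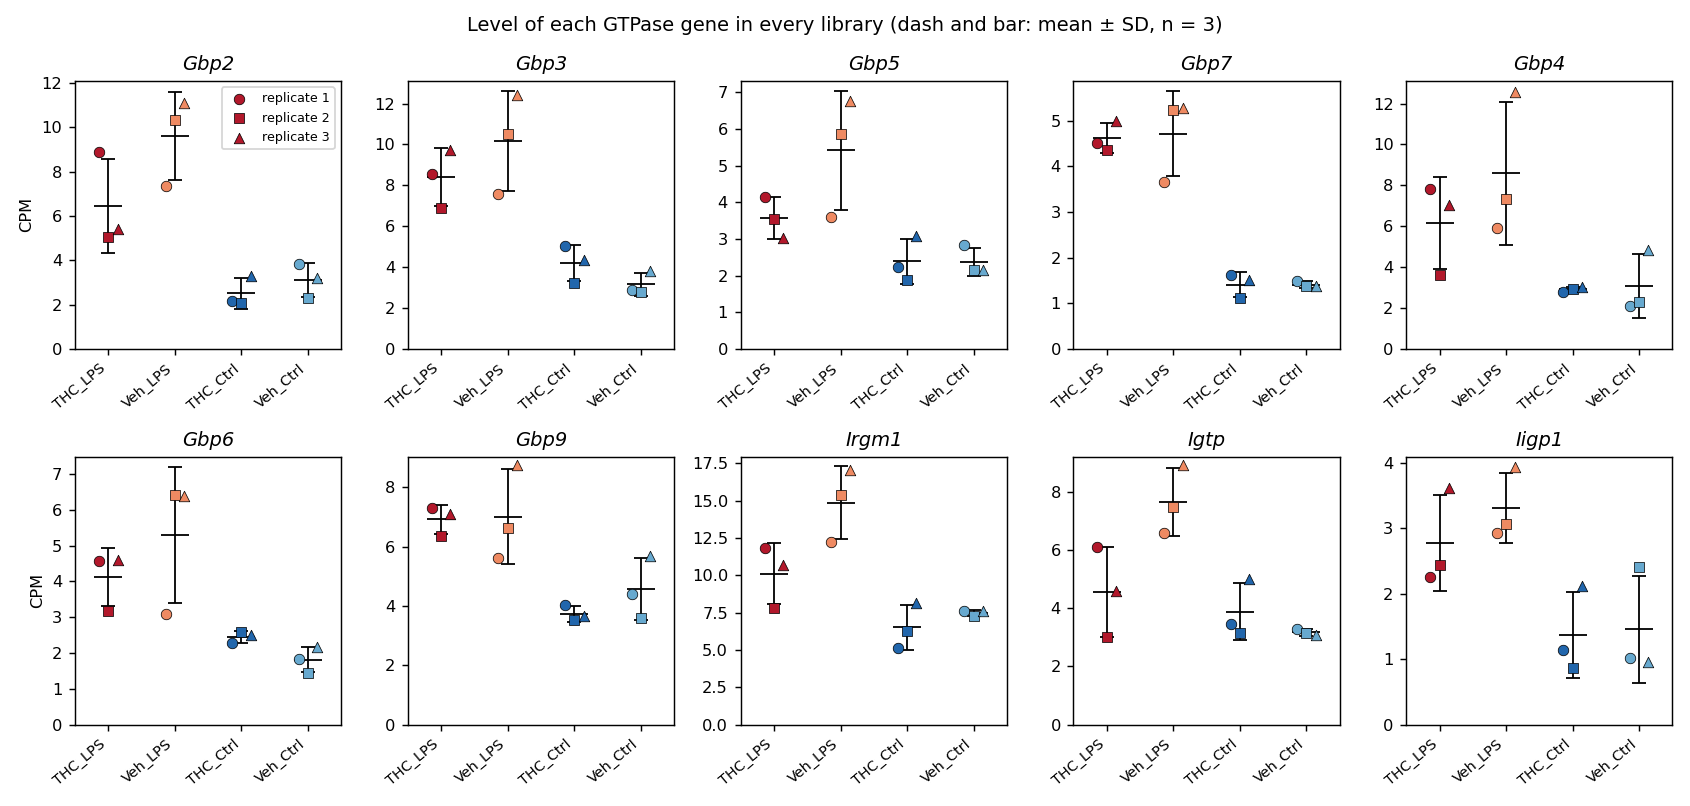
CPM of each member in every library, groups on the horizontal axis, symbols for replicates 1 to 3, dash and bar for the mean and SD (n = 3). For Gbp7 the 6 LPS libraries lie between 3.65 and 5.28 CPM and the 6 saline libraries between 1.11 and 1.62 CPM, whereas for Igtp the THC_LPS libraries overlap those of THC_Ctrl.

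Among the guanylate-binding proteins of chromosome 3, Gbp7, which is needed in mice for control of vacuolar pathogens, responded with the least spread. It had 4.51, 4.37 and 4.99 CPM in THC_LPS, 3.65, 5.23 and 5.28 CPM in Veh_LPS, 1.62, 1.11 and 1.50 CPM in THC_Ctrl and 1.49, 1.37 and 1.37 CPM in Veh_Ctrl. All 6 LPS libraries were above all 6 saline libraries, and the LPS groups overlapped each other. The log2 fold change with LPS was 1.71 ± 0.23 after THC (SE, edgeR adjusted p = 0.0107) and 1.74 ± 0.23 after vehicle (edgeR adjusted p = 0.00175). The call after THC was lost when THC_Ctrl replicate 1, 2 or 3 was left out (edgeR adjusted p = 0.052, 0.0991 and 0.0572) and when only the 6 THC libraries entered the fit (0.174), with log2 fold changes of 1.56 to 1.82, and the call after vehicle held in 22 of 22 alternative analyses.

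Gbp2, a mouse protein that coats pathogen vacuoles and promotes caspase-11 activation, had 8.90, 5.06 and 5.42 CPM in THC_LPS, 7.34, 10.3 and 11.1 CPM in Veh_LPS, 2.14, 2.05 and 3.31 CPM in THC_Ctrl and 3.81, 2.28 and 3.20 CPM in Veh_Ctrl. Both LPS groups stood above both saline groups, while THC_LPS and Veh_LPS overlapped because THC_LPS replicate 1 exceeded Veh_LPS replicate 1. It rose after vehicle, with a log2 difference of 1.63 ± 0.27 (edgeR adjusted p = 0.00742), and had 1.36 ± 0.28 after THC (0.0736). The call after vehicle was lost without Veh_LPS replicate 3 (edgeR adjusted p = 0.0581) or Veh_Ctrl replicate 2 (0.0728).

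Gbp3, another member of the chromosome 3 cluster that is required in mice for resistance to Toxoplasma, had 8.55, 6.90 and 9.73 CPM in THC_LPS, 7.57, 10.5 and 12.4 CPM in Veh_LPS, 5.02, 3.24 and 4.35 CPM in THC_Ctrl and 2.87, 2.77 and 3.82 CPM in Veh_Ctrl. The lowest LPS library, THC_LPS replicate 2, was above the highest saline library, THC_Ctrl replicate 1. Its log2 fold change was 0.99 ± 0.23 after THC (edgeR adjusted p = 0.0934) and 1.69 ± 0.23 after vehicle (edgeR adjusted p = 0.00219), the second of which was called in 22 of 22 alternatives.

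The row named Gbp5, a gene whose mouse product promotes assembly of the NLRP3 inflammasome, had 4.16, 3.54 and 3.03 CPM in THC_LPS, 3.61, 5.87 and 6.77 CPM in Veh_LPS, 2.22, 1.89 and 3.08 CPM in THC_Ctrl and 2.83, 2.15 and 2.16 CPM in Veh_Ctrl. THC_LPS replicate 3 fell just under THC_Ctrl replicate 3, so the THC groups overlapped, whereas Veh_LPS was above Veh_Ctrl in every library. Neither response passed the test, with log2 fold changes of 0.57 ± 0.27 after THC (edgeR adjusted p = 0.263) and 1.19 ± 0.26 after vehicle (0.0564).

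Of the chromosome 5 cluster, the row named Gbp6, a family member that is recruited to pathogen vacuoles in mice, had 4.57, 3.19 and 4.59 CPM in THC_LPS, 3.09, 6.40 and 6.38 CPM in Veh_LPS, 2.27, 2.59 and 2.50 CPM in THC_Ctrl and 1.85, 1.45 and 2.16 CPM in Veh_Ctrl. Both LPS groups were above their saline groups without overlap, and Veh_LPS replicate 1 was lowest of the 6 LPS libraries. It rose after vehicle by 1.55 ± 0.28 on the log2 scale (edgeR adjusted p = 0.0151) and had 0.74 ± 0.28 after THC (0.189). The call after vehicle was lost without Veh_LPS replicate 2 (edgeR adjusted p = 0.096), Veh_LPS replicate 3 (0.113), Veh_Ctrl replicate 1 (0.107) or Veh_Ctrl replicate 2 (0.15).

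Gbp4, its neighbour in the cluster, had 7.84, 3.62 and 7.04 CPM in THC_LPS, 5.91, 7.31 and 12.5 CPM in Veh_LPS, 2.79, 2.91 and 3.04 CPM in THC_Ctrl and 2.08, 2.28 and 4.86 CPM in Veh_Ctrl. Spread within groups was wide, with Veh_LPS replicate 3 more than any other library and THC_LPS replicate 2 close to the saline libraries. The log2 fold changes, 1.07 ± 0.36 after THC (edgeR adjusted p = 0.164) and 1.50 ± 0.35 after vehicle (0.0794), did not pass.

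Gbp9, which overlaps Gbp4 on the genome, had 7.30, 6.37 and 7.09 CPM in THC_LPS, 5.63, 6.63 and 8.77 CPM in Veh_LPS, 4.05, 3.53 and 3.65 CPM in THC_Ctrl and 4.40, 3.60 and 5.69 CPM in Veh_Ctrl. The LPS libraries of THC_LPS were above those of THC_Ctrl, and Veh_LPS overlapped Veh_Ctrl because Veh_Ctrl replicate 3 exceeded Veh_LPS replicate 1. This was the 1 member with a larger estimate after THC, 0.88 ± 0.21 on the log2 scale (edgeR adjusted p = 0.101), than after vehicle, 0.63 ± 0.21 (0.375), and neither passed.

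Of the immunity-related GTPases, Irgm1, a regulator that in mice protects host membranes and supports autophagy, had 11.8, 7.82 and 10.7 CPM in THC_LPS, 12.2, 15.3 and 17.0 CPM in Veh_LPS, 5.14, 6.24 and 8.16 CPM in THC_Ctrl and 7.58, 7.25 and 7.60 CPM in Veh_Ctrl. Veh_LPS stood above every other library, and THC_LPS replicate 2 was below THC_Ctrl replicate 3. It rose after vehicle by 0.99 ± 0.20 on the log2 scale (edgeR adjusted p = 0.0278) and had 0.63 ± 0.20 after THC (0.153). Leaving out any of 5 libraries, Veh_LPS replicate 2 or 3 or any Veh_Ctrl replicate, ended the call, with edgeR adjusted p-values of 0.0865 to 0.201.

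Igtp, the other regulator, had 6.11, 3.01 and 4.59 CPM in THC_LPS, 6.58, 7.50 and 8.92 CPM in Veh_LPS, 3.48, 3.16 and 5.00 CPM in THC_Ctrl and 3.30, 3.15 and 3.07 CPM in Veh_Ctrl. Veh_LPS was above every other library, and the THC_LPS libraries were spread over the range of THC_Ctrl and beyond. It rose after vehicle by 1.28 ± 0.25 (log2, edgeR adjusted p = 0.0258) and had 0.22 ± 0.25 after THC (0.637). The same 5 omissions ended its call after vehicle, with edgeR adjusted p-values of 0.0896 to 0.172.

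Iigp1, an effector that in mice disrupts the vacuoles of intracellular parasites, was the member with the fewest reads and had 2.26, 2.45 and 3.62 CPM in THC_LPS, 2.93, 3.07 and 3.93 CPM in Veh_LPS, 1.13, 0.862 and 2.12 CPM in THC_Ctrl and 1.02, 2.40 and 0.955 CPM in Veh_Ctrl. LPS libraries stood above saline libraries within each pretreatment, by a narrow margin in both. The log2 fold changes of 1.01 ± 0.38 after THC (edgeR adjusted p = 0.189) and 1.19 ± 0.37 after vehicle (0.315) did not pass.

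**Figure D4:**
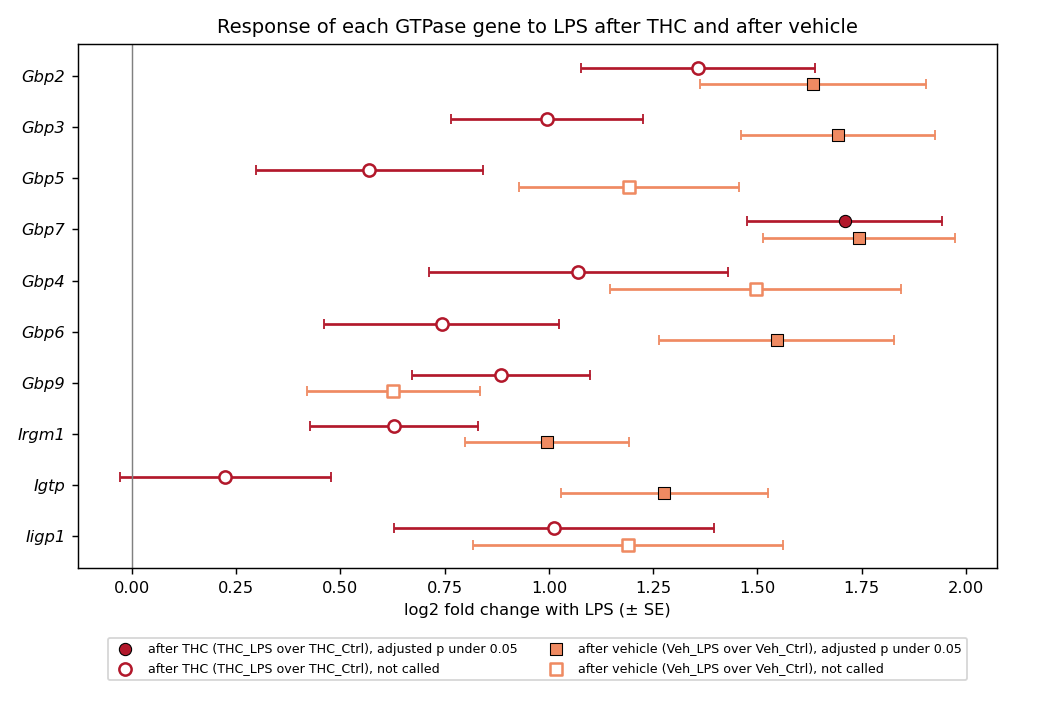
Log2 fold change with LPS (horizontal axis, ± SE) of each member after THC (circles, THC_LPS over THC_Ctrl) and after vehicle (squares, Veh_LPS over Veh_Ctrl), filled where edgeR's adjusted p was under 0.05. The Gbp7 values nearly coincide at 1.71 and 1.74, and Igtp has the widest gap, 0.22 against 1.28.

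Averaged over both pretreatments, LPS raised 9 of the 10 members, where 1.34% of all tested genes were called higher. The largest averaged log2 fold change was that of Gbp7, 1.73 ± 0.16 (edgeR adjusted p = 6.54e-05), followed by Gbp2 with 1.50 ± 0.20 (0.000609) and Gbp3 with 1.34 ± 0.16 (0.000356). Iigp1 missed the threshold with 1.10 ± 0.27 (edgeR adjusted p = 0.052). The 6 LPS libraries lay above the 6 saline libraries for 4 members, Gbp2, Gbp3, Gbp7 and Gbp6, where 1.14% of all genes did so. Leaving out Veh_LPS replicate 3, the deepest library and the highest of all 12 for 9 members, left 5 members called, where 0.744% of all genes were called higher.

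Veh_LPS replicate 1 was the lowest of its group for all 10 members and THC_LPS replicate 2 the lowest of its group for 8. The highest of THC_LPS was replicate 1 for 6 members and replicate 3 for 4. The share of all genes lowest or highest in these libraries, or highest in Veh_LPS replicate 3, was not computed. Whether such counts are particular to the family is therefore not known. In Veh_LPS replicate 1 the Spearman correlation of relative gene levels was 0.249 with GC content and -0.308 with gene length. In THC_LPS replicate 2 these were -0.103 and 0.281. The GC value was higher than in Veh_LPS replicate 1 in THC_Ctrl replicate 2 (0.274) and Veh_Ctrl replicate 3 (0.258). The part of composition or length in the order of libraries was not tested. In the sum of the 7 guanylate-binding rows, THC_LPS libraries had 33.1 to 45.8 CPM, Veh_LPS 36.8 to 63.3 CPM, THC_Ctrl 17.3 to 21.4 CPM and Veh_Ctrl 15.9 to 23.3 CPM. The means were 40.3 ± 6.5 CPM in THC_LPS and 19.6 ± 2.1 CPM in THC_Ctrl, a ratio of 2.05, and 50.8 ± 13.3 CPM in Veh_LPS and 19.5 ± 3.7 CPM in Veh_Ctrl, a ratio of 2.61 (SD, n = 3 each). The 3 immunity-related rows summed to 17.5 ± 3.7 CPM in THC_LPS and 11.8 ± 3.1 CPM in THC_Ctrl, a ratio of 1.48, and to 25.8 ± 4.1 CPM in Veh_LPS and 12.1 ± 0.6 CPM in Veh_Ctrl, a ratio of 2.14. LPS libraries were above saline libraries for the guanylate-binding sum in both pretreatments, and for the immunity-related sum after vehicle, whereas THC_LPS reached down to 13.3 CPM and THC_Ctrl up to 15.3 CPM. Within the chromosome 3 rows, whose Gbp5 row overlaps others, the ratio was 2.19 after THC and 2.98 after vehicle, and within the chromosome 5 rows it was 1.89 after THC and 2.21 after vehicle.

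Per length, in the deposited FPKM, the order of the members differed between saline and LPS groups. Irgm1 and Igtp led in Veh_Ctrl, at 1.90 ± 0.07 and 1.53 ± 0.04 FPKM, and Igtp and Irgm1 led in THC_Ctrl, at 1.92 ± 0.52 and 1.70 ± 0.42 FPKM (SD, n = 3 each). Next in THC_Ctrl was Gbp3, at 1.57 ± 0.35 FPKM, and next in Veh_Ctrl was Gbp9, and each overlapped the gene before it. With LPS, the leading 4 in both groups were Gbp2, Gbp3 and the 2 regulators. In THC_LPS, Gbp3 had 3.17 ± 0.52 FPKM, Irgm1 2.67 ± 0.52, Gbp2 2.60 ± 0.84 and Igtp 2.29 ± 0.76, and in Veh_LPS, Irgm1 had 3.94 ± 0.73, Gbp2 3.87 ± 0.88, Gbp3 3.85 ± 1.00 and Igtp 3.85 ± 0.67. Neighbours in each of these orders of 4 had overlapping libraries. The step down to Gbp9, next in the order, was clear of overlap in Veh_LPS (1.96 ± 0.49 FPKM) and not in THC_LPS (1.93 ± 0.12 FPKM). Gbp7 had the lowest mean per length in all 4 groups, 0.84 ± 0.06 FPKM in THC_LPS, 0.86 ± 0.19 in Veh_LPS, 0.25 ± 0.05 in THC_Ctrl and 0.25 ± 0.01 in Veh_Ctrl, although it had the largest fold change with LPS. Summed over the 10 members, levels were 17.9 ± 3.2 FPKM in THC_LPS, 24.4 ± 5.8 in Veh_LPS, 9.92 ± 1.85 in THC_Ctrl and 9.54 ± 0.93 in Veh_Ctrl.

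**Figure D5:**
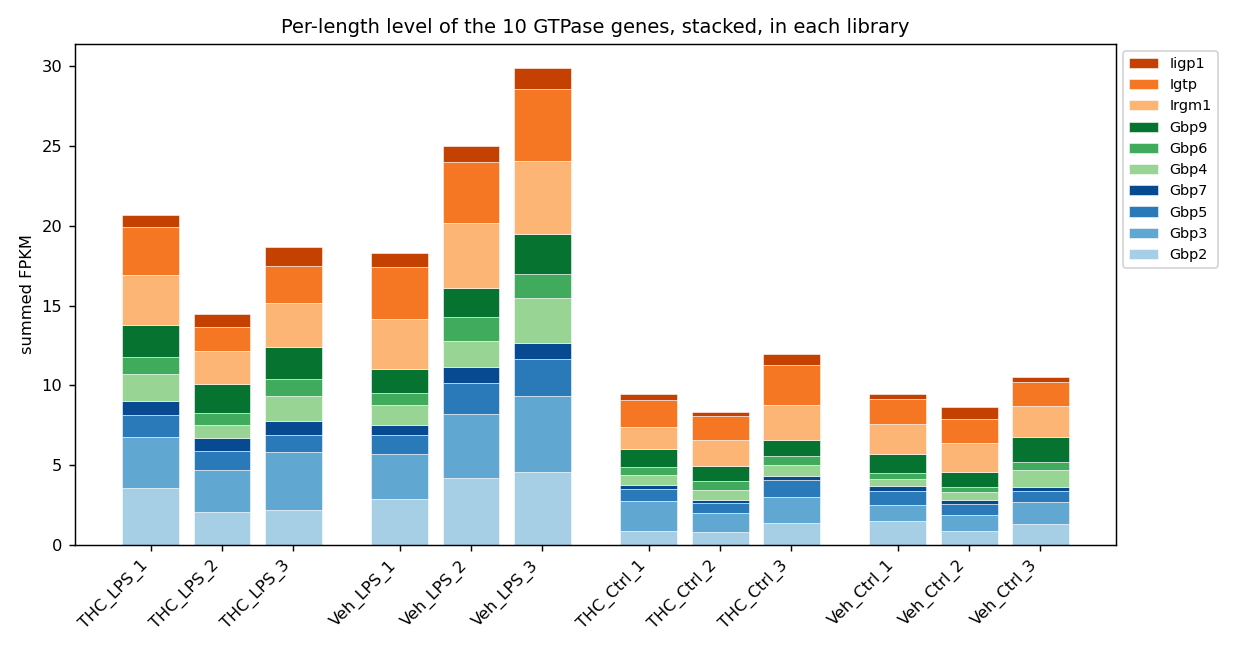
Deposited FPKM of the 10 members stacked in each library (blues for the chromosome 3 rows, greens for chromosome 5, oranges for the immunity-related GTPases). The stacks reach 14.5 to 20.7 FPKM in THC_LPS, 18.3 to 29.9 in Veh_LPS, 8.35 to 11.96 in THC_Ctrl and 8.65 to 10.5 in Veh_Ctrl.

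With LPS, THC-pretreated libraries had lower estimates than vehicle-pretreated ones for all 10 members, and none passed the test. Of all 17208 tested genes, 8524 had an estimate above 0 in this comparison. In THC_LPS over Veh_LPS edgeR called 0 of 10, where 0% of all tested genes were called, and DESeq2 and limma-voom also called 0, with 0.00783% and 0.0116% of all genes called. At an unadjusted p under 0.05 edgeR had 4 members, Gbp2, Gbp5, Irgm1 and Igtp, where 10.3% of all genes were at that level. The members' median log2 fold change was -0.44, and that of all genes was -0.003. Igtp had the largest difference, -0.76 ± 0.25 (edgeR adjusted p = 0.478), with 3.01 to 6.11 CPM in THC_LPS and 6.58 to 8.92 CPM in Veh_LPS. Irgm1 had -0.56 ± 0.19 (edgeR adjusted p = 0.478), with 7.82 to 11.8 CPM in THC_LPS and 12.2 to 17.0 CPM in Veh_LPS. These were the 2 members whose groups did not overlap, where 6.12% of all genes were lower without overlap. Gbp2 had -0.58 ± 0.26 and Gbp5 -0.61 ± 0.26 (edgeR adjusted p = 0.478 for both), with overlapping libraries. Gbp7 and Gbp9 had differences of -0.03 ± 0.21 and -0.03 ± 0.20, and both changed sign when Veh_LPS replicate 3 was left out (0.06 and 0.17). Without that library the members' median was -0.16, and with the GC trend of each library removed it was -0.62. The ratio of the summed means was 0.793 for the guanylate-binding rows and 0.675 for the immunity-related rows. The comparison shares the Veh_LPS libraries with that of LPS after vehicle, so a high Veh_LPS library enters both.

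Without LPS, no member passed the test between THC_Ctrl and Veh_Ctrl libraries. By edgeR 0 of 10 were called, and 0% of all tested genes were called. At an unadjusted p under 0.05 edgeR had 0 members, where 3.62% of all genes were at that level. DESeq2 called 0 members and 0.0956% of all genes, and limma-voom 0 members and 0.622% of all genes. The log2 fold changes ran from -0.31 ± 0.29 in Gbp2 to 0.43 ± 0.29 in Gbp6 (edgeR adjusted p = 1 for both). Gbp6 was the 1 member without overlap, at 2.27 to 2.59 CPM in THC_Ctrl and 1.45 to 2.16 CPM in Veh_Ctrl, where 5.96% of all genes were higher without overlap. Gbp7 had a difference of 0 ± 0.26, with 1.11 to 1.62 CPM in THC_Ctrl and 1.37 to 1.49 CPM in Veh_Ctrl. The summed rows had ratios of 1.01 (guanylate-binding) and 0.972 (immunity-related).

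Whether the LPS response itself differed with pretreatment was tested by the interaction, which is the log2 response after THC minus that after vehicle. No member was called by edgeR, DESeq2 or limma-voom, 0% of all tested genes were called by edgeR, and 2 members, Gbp3 and Igtp, had an unadjusted edgeR p under 0.05, where 6.78% of all genes did. Igtp had -1.05 ± 0.35 (edgeR adjusted p = 0.71), Gbp6 -0.80 ± 0.40 (0.71), Gbp3 -0.70 ± 0.32 (0.71) and Gbp5 -0.62 ± 0.38 (0.715). Gbp7 had -0.03 ± 0.33, and Gbp9 was the 1 member above 0, at 0.26 ± 0.30, where 8595 of all 17208 genes were above 0. The 6 calls after vehicle against 1 after THC are therefore not shown to be a difference between pretreatments, nor do these errors show that the responses were alike.

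The authors' deposited table gives an adjusted p-value without naming its comparison, and over 16921 genes its values had the ranks of a DESeq2 fit of the 6 THC_LPS and THC_Ctrl libraries (Spearman correlation across genes 1). There 4 members were under 0.05, Gbp7 (0.000133), Gbp2 (0.0112), Gbp3 (0.0287) and Gbp9 (0.0373), where 0.857% of the 16921 genes with a value were under it in either direction. The other 6 members had 0.0723 to 0.788 in the authors' deposited table, the highest for Igtp. DESeq2 on all 12 libraries also called 4 members, all higher, where it called 2.44% of all genes higher, against 0.0988% by edgeR.

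Other GTPases of both families were counted from a list of 15, of which 12 were in the files and 7 were tested. After vehicle, LPS raised 3 of the 7. After THC, edgeR called 0, DESeq2 called 1 and limma-voom 1. At an unadjusted edgeR p under 0.05 there were 3, where 19.4% of all genes were at that level. Irgm2, the remaining membrane regulator, had 9.07 ± 1.33 CPM in THC_LPS, 11.2 ± 1.5 in Veh_LPS, 5.34 ± 0.82 in THC_Ctrl and 5.00 ± 0.26 in Veh_Ctrl. Its log2 fold change was 0.76 ± 0.18 after THC (edgeR adjusted p = 0.0964) and 1.16 ± 0.18 after vehicle (0.0043). The effectors Tgtp1 and Tgtp2, which share 91.4% and 90.6% of their 50-base words with other genes and are uncertain as single genes, rose after vehicle by 2.67 ± 0.57 and 1.90 ± 0.38 (edgeR adjusted p = 0.0457 and 0.03). Irgq, an immunity-related GTPase that is not known to be interferon-inducible, had 124 ± 16 CPM in THC_LPS, 133 ± 6 in Veh_LPS, 149 ± 8 in THC_Ctrl and 154 ± 5 in Veh_Ctrl, and did not pass in either comparison.

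Upstream of the family, 4 of 18 tested interferon receptors, kinases and factors rose with LPS after vehicle and 1 after THC. Irf7, a transcription factor that binds ISREs, rose in both, by 2.08 ± 0.26 after THC (edgeR adjusted p = 0.0051) and 3.15 ± 0.27 after vehicle (4.75e-05). Nlrc5, a regulator of antigen presentation genes, rose after vehicle by 2.16 ± 0.34 (edgeR adjusted p = 0.00548) and had 0.97 ± 0.35 after THC (0.174). Usp18, which restrains interferon receptor signalling, and Irf9, the DNA-binding partner of the STAT factors, were the other 2 that rose after vehicle, by 1.97 ± 0.35 and 0.92 ± 0.18 (edgeR adjusted p = 0.0128 and 0.0278). Irf1 did not pass, at 0.18 ± 0.25 after THC and 0.50 ± 0.24 after vehicle (edgeR adjusted p = 0.704 and 0.682). Ifng, which encodes interferon gamma, had too few reads to be tested.

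Downstream, 2 of 11 tested inflammasome and cell death partners rose with LPS after vehicle. After THC, edgeR called 0, DESeq2 called 0 and limma-voom 1. At an unadjusted edgeR p under 0.05 there were 2, where 19.4% of all genes were at that level. Those that rose after vehicle were Zbp1, a nucleic acid sensor that triggers necroptosis, at 3.51 ± 0.56 (edgeR adjusted p = 0.00556), and the inflammasome adaptor Pycard, at 1.70 ± 0.34 (0.0278). Casp4, the mouse caspase that binds intracellular LPS, had 0.69 ± 0.61 CPM in THC_LPS, 0.74 ± 0.35 in Veh_LPS, 0.17 ± 0.15 in THC_Ctrl and 0.18 ± 0.06 in Veh_Ctrl and did not pass (edgeR adjusted p = 0.275 after THC and 0.65 after vehicle). ATG8 conjugation is the part of the autophagy machinery that helps place these GTPases on vacuoles. Of 16 tested genes of ATG8 conjugation and autophagy, edgeR and DESeq2 each called 1 after vehicle and limma-voom 2. By edgeR that gene was Rnf213, a ubiquitin ligase that coats bacteria, at 1.47 ± 0.19 (edgeR adjusted p = 0.00175). No Atg gene or ATG8 protein of the list was called by edgeR after vehicle. After THC, edgeR called 0 of the 16, DESeq2 called 1 and limma-voom 2. At an unadjusted edgeR p under 0.05 there were 4 of the 16, where 19.4% of all genes were at that level. Of those 4, Rnf213 was above 0, at 0.85 ± 0.19 (edgeR adjusted p = 0.0832), and the ATG8 proteins Map1lc3a and Gabarapl2 and the receptor Sqstm1 were below 0, at -0.65 ± 0.24, -0.40 ± 0.14 and -0.36 ± 0.15 (edgeR adjusted p = 0.177, 0.168 and 0.211).

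By the root mean square difference of centred log2 CPM over the 12 libraries, the gene most like the guanylate-binding sum among 14717 genes was Rnf213 (0.173), and Lgals9 (0.182), Fcgr2b (0.201) and Lcp1 (0.202) were among the next, where the median gene had 0.708. The immunity-related sum was most like C1qb (0.174), Fcgr3 (0.177), Lgals9 (0.202) and B2m (0.204), where the median gene had 0.573. Among the members, the closest pairs were Gbp5 with Irgm1 (0.23) and Irgm1 with Igtp (0.232), and the most distant was Gbp4 with Iigp1 (0.628).

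Markers of cells that could carry these transcripts moved with LPS in part. The 8 blood leukocyte markers summed to 6.59 to 11.4 CPM in THC_LPS, 6.86 to 11.2 in Veh_LPS, 1.48 to 3.19 in THC_Ctrl and 2.82 to 3.86 in Veh_Ctrl, and 3 of 5 tested (Ptprc, Ly6c2 and Plac8) rose on the average. The 6 endothelial markers summed to 279 to 312 CPM in THC_LPS, 273 to 302 in Veh_LPS, 202 to 229 in THC_Ctrl and 231 to 243 in Veh_Ctrl, and 2 of 6 (Vwf and Pecam1) rose on the average. The 5 border-associated macrophage markers summed to 13.2 to 16.4 CPM in THC_LPS, 9.79 to 14.3 in Veh_LPS, 7.65 to 8.39 in THC_Ctrl and 7.43 to 10.02 in Veh_Ctrl, and 1 of 5, Siglec1, rose. The 6 microglia markers summed to 239 to 268 CPM in THC_LPS, 237 to 284 in Veh_LPS, 216 to 257 in THC_Ctrl and 208 to 231 in Veh_Ctrl. On the average edgeR called 0 of 6, DESeq2 called 2 and limma-voom 3. At an unadjusted edgeR p under 0.05 there were 2 of the 6, where 18.6% of all genes were at that level. The 5 astrocyte markers summed to 2860 to 3720 CPM in THC_LPS, 2600 to 3270 in Veh_LPS, 2380 to 2720 in THC_Ctrl and 3000 to 3630 in Veh_Ctrl. Most of this sum was Slc1a2, with means of 2525, 2233, 1961 and 2695 CPM in that order. Of the 5, 3 had estimates above 0 after THC and 2 after vehicle. After vehicle Gfap was higher with LPS (log2 0.68) and Aqp4 lower (-0.32), both without overlap. With LPS after THC edgeR called 0 of the 5, DESeq2 0 and limma-voom 1, and after vehicle edgeR called 0, DESeq2 1 and limma-voom 2. At an unadjusted edgeR p under 0.05 there were 1 after THC and 2 after vehicle, where 19.4% and 7.45% of all genes were. The part of these cells in the GTPase levels was not tested.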

How the data were processed

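RNA was prepared with TRIzol and a PureLink column, per the labels. STAR 2.5, HTSeq, DESeq2 and mm10 are named in the submitters' processing notes without roles. Their settings, the strand rule, the annotation and the treatment of multi-mapping reads were not given in the sources used here. Per the file headers, the authors deposited raw read counts and FPKM for each gene, and an adjusted p-value in 1 of the tables.

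In the table of THC_LPS replicate 3 a further normalized column carries the name of replicate 2 and was not used. The 12 tables were joined by gene ID, absent genes taken as 0 reads. Counts of all 12 libraries (16.7 to 44.7 M reads each) entered 1 fit in edgeR 4.0.16 (R 4.3.3) with a mean for every group, scaled by TMM, filtered by edgeR's default rule and with robust quasi-likelihood dispersions. P-values were adjusted by Benjamini-Hochberg over 17208 genes. The SE is the absolute log2 fold change divided by the square root of F and is approximate, most of all near 0. Family sums were not tested. Likeness compared genes averaging 1 CPM or more, with a prior count of 0.5, and some genes are not reported here. No pair of libraries within a group was alike enough to be 1 library (chi-square per degree of freedom 10.5 or more). The fit was tested on simulated counts.

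All members were named in every comparison. Of each other list the counts were given, with up to 4 genes of smallest p for LPS averaged over pretreatments and any called gene. Irgq, Irf1, Ifng and Map1lc3a fall outside that rule and were chosen after their values were seen. The members and lists were chosen with earlier results of these data known. Alternatives were DESeq2 1.42.0, limma-voom (3.58.1) with sample weights, other scaling and filters, removal of GC or length trends, a fit restricted to the groups compared, a replicate block, and omission of libraries. An additional sum of immunity-related GTPases was chosen after seeing the data.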

Additional observations from a re-analysis of the deposited data

How the results depend on the processing

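Members called with LPS after vehicle, 6 in all where 0.622% of all genes were called higher, numbered 10 by limma-voom with sample weights, where 5.19% of all genes were, and 2 to 8 with a library left out, where 0.187 to 1.05% were (3 without Veh_LPS replicate 2 or Veh_Ctrl replicate 1, 2 without Veh_LPS replicate 3 or Veh_Ctrl replicate 2). After THC the count of 1 (0.0988% of all genes higher) became 4 by DESeq2 (2.44%), 4 by limma-voom (3.21%) and 3 with no low-count filter (0.505%). It was 0 in a fit of only the groups compared (0.00609%), and 0 to 1 with a library left out (0 to 0.608%). Averaged over pretreatments the count of 9 (1.34% of all genes higher) was 5 to 10 with a library left out, where 0.721 to 2.91% were. It was 5 without Veh_LPS replicate 3 (0.744%). The cause was not tested, except that omissions leave fewer libraries. No member was called in THC with LPS, THC without LPS or the interaction under any alternative run.

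The immunity-related sum had ratios of 1.018, 0.9159 and 0.8748 (LPS after vehicle, LPS after THC, THC with LPS) with the other immunity-related genes of the list added, of which Irgq alone had 106 to 158 CPM in a library. Without Irgq and Irgc1, a sum chosen after seeing the data, they were 2.33, 1.577 and 0.6913. With a library left out, the guanylate-binding ratios were 1.908 to 2.251 (LPS after THC), 2.281 to 2.98 (LPS after vehicle) and 0.6968 to 0.9044 (THC with LPS), and the immunity-related ones 1.366 to 1.744, 1.964 to 2.301 and 0.6228 to 0.7495 in that order.

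Of 1300 member values under alternatives, 1172 kept direction and call, 45 lost the call, 35 gained it and 23 changed sign, 0 of these past the threshold. The 22 values of Gbp7 in THC without LPS (-0.109 to 0.1447), whose reported value was 0 to 2 decimals, and 3 others at 0 kept the call and have no direction to compare. Changes of sign were seen for Igtp after THC (-0.0606 by limma-voom, -0.0366 to 0.4694 with a library left out), and, with a library left out, for THC with LPS in Gbp7 (-0.1844 to 0.0581) and Gbp9 (-0.1609 to 0.1737). In THC without LPS they were seen for Gbp5 (-0.2122 to 0.1564), Gbp4 (-0.2916 to 0.4428, and 0.2236 by limma-voom) and Iigp1 (-0.5449 to 0.4748, and 0.0411 by limma-voom), and in the interaction for Gbp7 (-0.1833 to 0.0761) and Iigp1 (-0.7341 to 0.2853).

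Of 18 pairs of libraries with the same replicate number, 0 had a correlation of deviations over 0.1 (-0.145 to 0.0815). Pairs of unlike number were not compared, so this does not settle whether replicate numbers pair the samples. With the replicate number as a block, 7 members were called with LPS after vehicle, where 0.5% of all genes were called higher. After THC 1 member was called (0.0814% of all genes higher), on the average 7 were (1.05%), and in the other comparisons 0. Gbp4 in THC without LPS changed sign with this block (0.0077).

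Members had 21 to 785 reads a library, and with 3 libraries a group the SE of their log2 differences was 0.19 to 0.36 in THC with LPS and 0.28 to 0.53 in the interaction.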

Other observations

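Among other large GTPases of the dynamin family, 2 of 12 tested genes rose with LPS after vehicle. Mx2, an antiviral GTPase, had 2.29 ± 0.56 CPM in THC_LPS, 3.55 ± 0.79 in Veh_LPS, 1.57 ± 0.43 in THC_Ctrl and 0.90 ± 0.38 in Veh_Ctrl (SD, n = 3 each), and rose after vehicle by 1.98 ± 0.33 on the log2 scale (edgeR adjusted p = 0.00805). Mx1, its neighbour, had 0.86 ± 0.41 CPM in THC_LPS, 1.77 ± 1.01 in Veh_LPS, 0.59 ± 0.10 in THC_Ctrl and 0.36 ± 0.13 in Veh_Ctrl, and rose after vehicle by 2.29 ± 0.49 (edgeR adjusted p = 0.0442). The fission and fusion GTPases of that list (dynamins, mitofusins, Opa1 and atlastins) were not called by edgeR in any comparison. Of the 12 genes, DESeq2 called 2 and limma-voom 3 after vehicle, and 2 and 4 on the average of both pretreatments.

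The immunity-related rows made up 28.7 to 31.1% of the summed CPM of the 10 members in THC_LPS, 32.1 to 37.1% in Veh_LPS, 32.7 to 41.6% in THC_Ctrl and 33.3 to 44.6% in Veh_Ctrl. The THC_LPS libraries were below all 9 others in this share, which was noticed in the values and was not tested.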
